A study of Bos taurus with 14 samples.

Results

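The genes described here are *TULP1*, *STK40*, *MAP7D1*, *EML1*, *TPCN1* and *ST6GALNAC4*, 6 genes measured in bovine muscle. They are 6 of the 26 genes that the study listed as different between cattle kept outdoors and cattle kept indoors, and they were selected on that difference, being lower outdoors on these same arrays. In the deposited values 10 of the 26 listed genes were lower outdoors. For each of the 6 genes 1 probe set was identified, a group of short oligonucleotides on an Affymetrix GeneChip Bovine Genome Array. Thus 6 of 24016 tested probe sets are concerned. The platform annotation names the probe sets of *STK40* and *ST6GALNAC4*, and the names of the other 4 come from the study's gene list. Further probe sets of these genes may lie among the 10638 to which the platform annotation gives no symbol.

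The animals were Charolais × Limousin crossbred heifers, divided at random between a pair of production systems until slaughter. The outdoor/pasture-fed group grazed grass and clover, and the indoor/concentrate-fed group was housed and given concentrates, so that housing, activity and diet differed together and cannot be told apart. Muscle was taken shortly after death from *M. longissimus dorsi* (LD), the long muscle of the back, of 7 outdoor/pasture-fed and 7 indoor/concentrate-fed animals, with 1 array per animal. The values are log2 expression levels, on which a difference of 1 is a doubling. The number of arrays, and not a read depth, limits their precision.

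Microtubules are hollow filaments of tubulin that organise the inside of the cell and serve as tracks for motor proteins. In a muscle fibre they run in a lattice beneath the membrane and around the nuclei, and proteins that bind them set their stability and their use by kinesin and dynein motors. *MAP7D1* and *EML1* encode microtubule-binding proteins. *TULP1* encodes a member of the tubby family, which binds membrane phosphoinositides and is known in human and mouse for protein traffic in photoreceptors. *STK40* encodes a kinase-like protein related to the Tribbles family, an adaptor of the COP1 ubiquitin ligase. *TPCN1* encodes a cation channel of endosomes and lysosomes, and *ST6GALNAC4* an enzyme that transfers sialic acid to glycans.

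All 6 genes averaged lower in outdoor/pasture-fed muscle, by 0.36 to 0.71 on the log2 scale. These differences chose the genes and are given as a description, without a test. In 5 of the 6 genes no outdoor animal reached the lowest indoor animal, and in *ST6GALNAC4* the groups overlapped. Over all tested probe sets, 0.154% were lower outdoors without overlap between the groups, and 0.322% of the 9623 varying probe sets, those whose standard deviation (SD) between arrays exceeds 0.01. The remaining probe sets hold almost the same value on every array and are called flat.

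**Figure D1:**
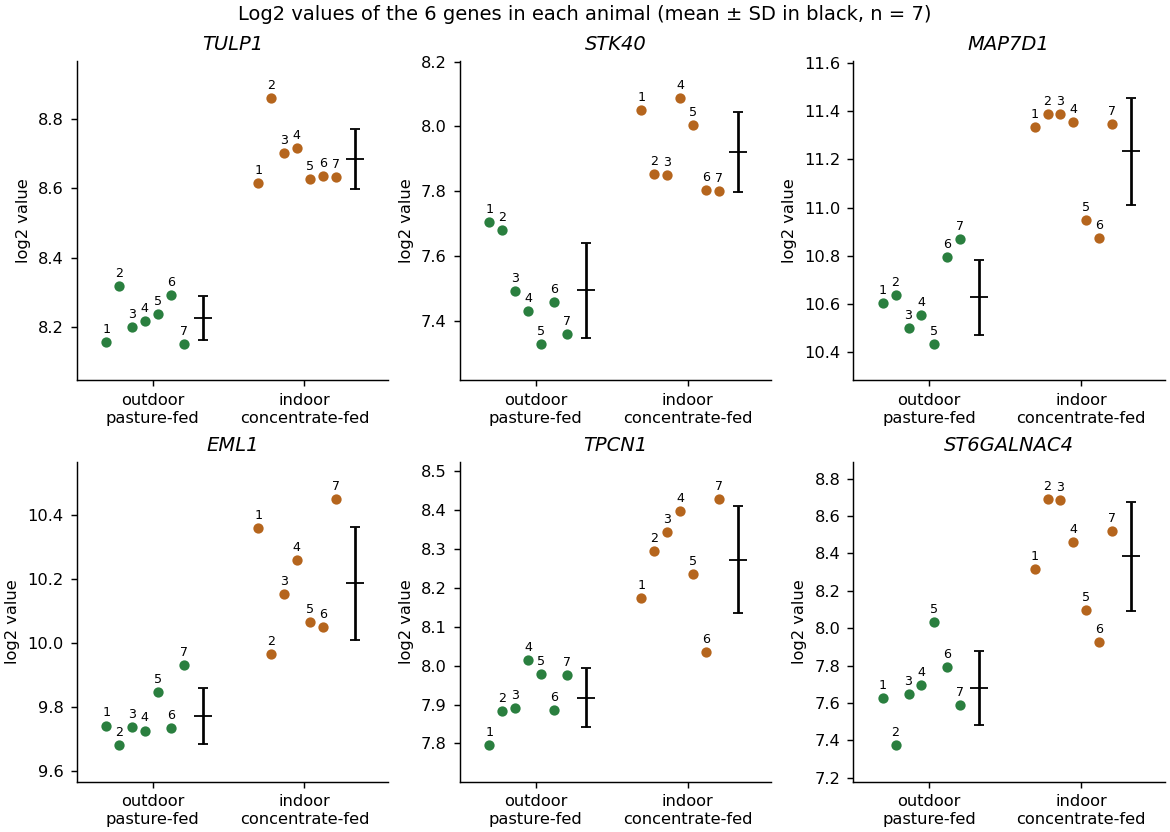
Log2 value of each gene (vertical axis, one panel per gene) in every outdoor/pasture-fed animal (left, green) and every indoor/concentrate-fed animal (right, brown), numbered by replicate, with the mean ± SD of the 7 animals in black. The groups are apart in 5 panels and overlap in the panel of *ST6GALNAC4*, where outdoor animal 5 lies above indoor animal 6.

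The microtubule-binding genes are taken first. *MAP7D1* belongs to the MAP7 family, whose members recruit the motor kinesin-1 to microtubules, and it lies on chromosome 3 (109649571 to 109671440 on ARS-UCD2.0). In outdoor animals 1 to 7 its log2 values were 10.60, 10.64, 10.50, 10.56, 10.44, 10.80 and 10.87. In indoor animals 1 to 7 they were 11.33, 11.39, 11.39, 11.35, 10.95, 10.88 and 11.35. Indoor animals 5 and 6 thus stood apart from the other 5 indoor animals, and the lowest of them was only 0.0054 above the highest outdoor animal. *MAP7D1* averaged 10.63 ± 0.16 outdoors and 11.23 ± 0.22 indoors (SD, n = 7 each), a difference of -0.60 (SE 0.10), so that the outdoor level was 65.8% of the indoor level.

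*EML1*, the largest of the 6 genes on the genome, encodes a protein of the EML family that decorates microtubules and is known from human and mouse brain for orienting the mitotic spindle. It lies on chromosome 21 (64703757 to 64908495). Its values in outdoor animals 1 to 7 were 9.74, 9.68, 9.74, 9.73, 9.84, 9.73 and 9.93, with 5 of the 7 close together and animals 5 and 7 above them. The indoor animals had 10.36, 9.97, 10.15, 10.26, 10.07, 10.05 and 10.45. The indoor animals were spread more widely, with an SD of 0.09 outdoors and 0.18 indoors, and the lowest of them, animal 2, was 0.034 above the highest outdoor animal. The means were 9.77 outdoors and 10.19 indoors, a difference of -0.42 (SE 0.07, n = 7 each).

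Of the 6 genes *TULP1* showed the widest separation. It lies on chromosome 23 (9457480 to 9471815). Outdoor animals 1 to 7 had values of 8.16, 8.32, 8.20, 8.22, 8.24, 8.29 and 8.15, and indoor animals 1 to 7 had 8.61, 8.86, 8.70, 8.72, 8.63, 8.63 and 8.63. The lowest indoor animal was 0.30 above the highest outdoor animal, a gap larger than the range of either group. The means were 8.23 ± 0.06 outdoors and 8.68 ± 0.09 indoors (SD, n = 7 each), a difference of -0.46 (SE 0.04). Indoor animal 2 was the highest of its group by a clear margin.

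*STK40* recruits substrates, among them transcription factors, to the COP1 ligase. It lies on chromosome 3 (109490579 to 109528381). The outdoor animals had values of 7.71, 7.68, 7.49, 7.43, 7.33, 7.46 and 7.36, and the indoor animals 8.05, 7.85, 7.85, 8.09, 8.003, 7.80 and 7.80. Outdoor animals 1 and 2 were the nearest to the indoor group, 0.094 below its lowest animal in the case of animal 1. *STK40* was the only one of the 6 genes with a larger SD outdoors (0.15) than indoors (0.12). Its means were 7.49 outdoors and 7.92 indoors, a difference of -0.43 (SE 0.07, n = 7 each). By quantitative PCR in a larger set of animals that included these, the study found no significant difference of *STK40*. The direction was the same. *TULP1*, *MAP7D1* and *ST6GALNAC4* did differ by that method, and *EML1* and *TPCN1* were not measured by it.

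*TPCN1* lies on chromosome 17 (61225947 to 61286475) and had the smallest difference of the 6. Its values were 7.80, 7.88, 7.89, 8.02, 7.98, 7.88 and 7.98 in the outdoor animals. In the indoor animals they were 8.17, 8.29, 8.34, 8.40, 8.24, 8.04 and 8.43. Indoor animal 6, at 8.04, was within 0.020 of the highest outdoor animal, and the other 6 indoor animals were well above it. The means were 7.92 ± 0.08 outdoors and 8.27 ± 0.14 indoors (SD, n = 7 each), a difference of -0.36 (SE 0.06).

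*ST6GALNAC4* lies on chromosome 11 (98573693 to 98582863) and had the largest difference and the largest spread. The outdoor animals had 7.63, 7.38, 7.65, 7.69, 8.03, 7.79 and 7.59. The indoor animals had 8.32, 8.69, 8.69, 8.46, 8.09, 7.92 and 8.52. Outdoor animal 5 exceeded indoor animal 6, so 1 animal of each group lay within the range of the other. The means were 7.68 ± 0.20 outdoors and 8.38 ± 0.29 indoors (SD, n = 7 each), which places the outdoor level at 61.3% of the indoor level, with a difference of -0.71 (SE 0.13).

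No single animal was the highest or the lowest of its group in all 6 genes. Indoor animal 6 was the lowest of its group in 3 genes and below the group mean in all 6, and indoor animal 2 was the highest in 3 genes but the lowest in *EML1*. Among outdoor animals none was the highest or the lowest in more than 2 genes, and animal 3 was below the group mean in all 6. Leaving out any 1 animal kept every difference between -0.78 and -0.33, which is a description, since these arrays chose the genes. With 3 arrays left out, the ones with the lowest median correlation with all others over the varying probe sets (indoor animal 2 at 0.962, indoor animal 3 at 0.971 and outdoor animal 5 at 0.973, against 0.979 to 0.983 for the rest), the median difference of the 6 genes was -0.45, against -0.44 with all arrays.

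In the limma fit over all 24016 probe sets, *TULP1* passed an adjusted p of 0.05 and the other 5 genes did not. In that fit 0.00416% of the probe sets passed as lower outdoors and 0.0125% as higher. In the fit over the 9623 varying probe sets all 6 genes passed, with 0.135% of these probe sets passing as lower and 0.208% as higher. Nothing is read from these counts for the 6 genes, because the same contrast chose them.

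Whether genes that work with them differed in the same way could be asked of genes that the choice of the 6 did not use. The lists of these genes were, however, drawn up with earlier results of these data known. Across 9 lists of related genes, 168 genes were named, 117 have a probe set by name and 75 of these have a varying one. No related gene passed the adjusted threshold in either direction, in the fit over all probe sets or over the varying ones. At an unadjusted p under 0.05, 16 of the 117 were lower outdoors and 7 higher, beside 6.07% and 5.35% of all probe sets. Among the 75 varying genes 13 were lower (17.3%) and 5 higher (6.67%), beside 10.4% and 9.21% of all varying probe sets. Of the 75, 55 had a lower mean outdoors, where 52.5% of all varying probe sets did, and their median difference was -0.05, against -0.01 over all varying probe sets.

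**Figure D2:**
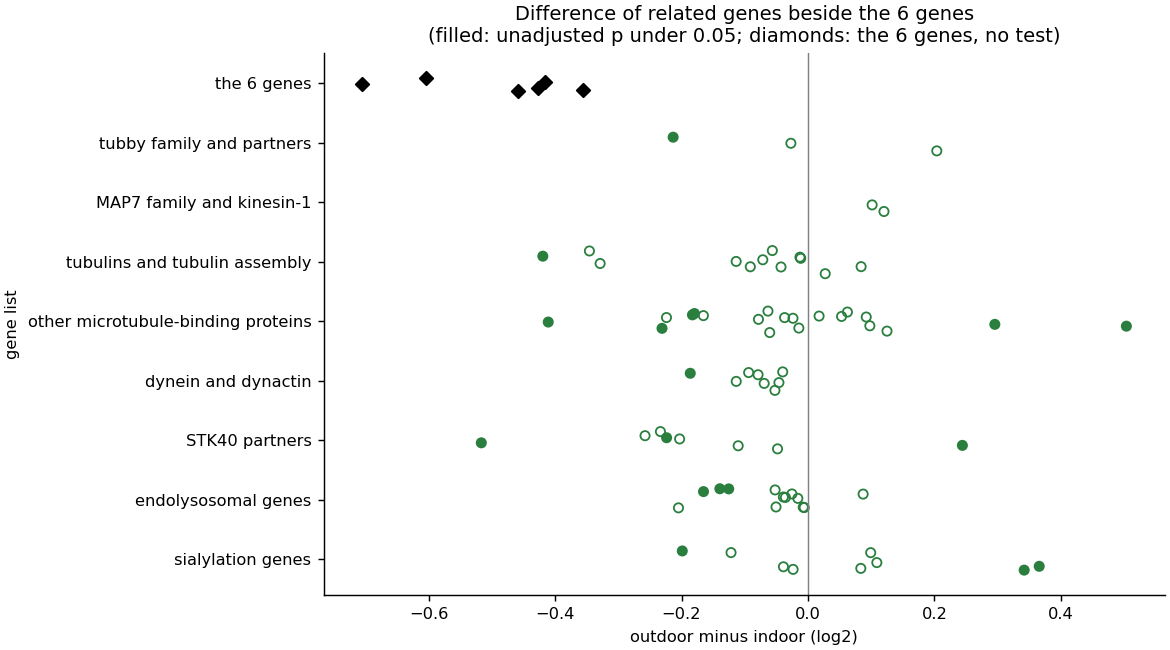
Difference between outdoor and indoor means (horizontal axis, log2) of each varying related gene, one row per list, with the 6 genes as black diamonds in the top row. Filled circles mark an unadjusted limma p under 0.05. Most circles lie nearer to 0 than the diamonds, and all 8 dynein and dynactin genes lie to the left of 0.

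The relatives and partners of *MAP7D1* and *EML1* come first. Of the MAP7 family and kinesin-1, which moves cargo towards the plus ends of microtubules, 5 genes were measured, and the varying ones were *KLC1* and *KLC4*, the light chains that bind cargo. *KLC4* averaged 7.49 outdoors and 7.39 indoors, a difference of 0.10 (SE 0.06, limma adjusted p = 0.55). *KLC1* averaged 10.90 outdoors and 10.78 indoors, a difference of 0.12 (SE 0.08, limma adjusted p = 0.64). The only other measured gene of the EML family, *EML3*, had a flat probe set at 5.90.

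Among tubulins and the factors that fold and nucleate them, 10 of 12 varying genes averaged lower outdoors and 2 higher, with a median of -0.06. *TUBB2B*, a beta-tubulin, averaged 8.72 ± 0.21 outdoors and 9.14 ± 0.37 indoors (SD, n = 7 each), a difference of -0.42 (SE 0.16) with a limma adjusted p of 0.34. *TBCB*, a tubulin folding cofactor, differed by -0.01 (limma adjusted p = 0.49). Among 20 varying genes of other microtubule-binding proteins 12 were lower and 8 higher. *KATNA1*, a subunit of the microtubule-severing enzyme katanin, averaged 10.31 ± 0.05 outdoors and 10.49 ± 0.11 indoors (SD, n = 7 each), a difference of -0.18 (limma adjusted p = 0.22). *NUDC*, a chaperone partner of the dynein pathway, averaged 9.38 outdoors and 9.61 indoors, a difference of -0.23 (limma adjusted p = 0.26).

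Dynein, with its activator dynactin, is the motor that moves towards the minus ends of microtubules. All 8 varying genes of this list averaged lower outdoors, by 0.04 to 0.19 on the log2 scale, and none passed the adjusted threshold. The heavy chain *DYNC1H1* averaged 8.83 outdoors and 9.02 indoors, a difference of -0.19 (SE 0.08, limma adjusted p = 0.37). The light chain *DYNLT3* has a flat probe set, at 9.19 in both groups.

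For *TULP1*, the list of tubby relatives and ciliary transport partners had 3 varying genes. *IFT43*, a subunit of the retrograde ciliary transport complex, averaged 6.87 outdoors and 7.09 indoors (difference -0.21, SE 0.08, limma adjusted p = 0.34). *WDR19*, another subunit of that complex, differed the other way, with 8.61 outdoors and 8.41 indoors (difference 0.20, SE 0.10, limma adjusted p = 0.49). The family member *TULP3* had a flat probe set.

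For *STK40*, 7 of 8 varying partners and substrates averaged lower outdoors, with a median of -0.21, the lowest median of the lists, and none passed the adjusted threshold. *DET1*, an adaptor of the COP1 ligase, averaged 8.87 ± 0.07 outdoors and 9.09 ± 0.15 indoors (SD, n = 7 each). Its difference was -0.22 (SE 0.06, limma adjusted p = 0.23). *JUNB*, a transcription factor of the JUN family, ranged over 7.45 to 8.30 outdoors and 8.13 to 8.74 indoors. Its difference of -0.52 (SE 0.15, limma adjusted p = 0.24) was the lowest of all varying related genes.

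Around *TPCN1*, 12 of 13 varying endolysosomal genes averaged lower outdoors, with a median of -0.04. *ATP6V1H*, a subunit of the proton pump that acidifies these compartments, differed by only -0.04 (SE 0.01, limma adjusted p = 0.17), at 8.21 outdoors and 8.25 indoors. *JPT2*, a protein through which the channel responds to the messenger NAADP, had a flat probe set.

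The sialylation genes around *ST6GALNAC4* were mixed, 4 lower and 5 higher among 9 varying genes. *ST3GAL2*, a sialyltransferase that acts on the same kind of glycan core, was higher outdoors in the means, at 10.44 ± 0.10 against 10.10 ± 0.31 indoors (SD, n = 7 each), a difference of 0.34 (SE 0.12, limma adjusted p = 0.31). Its outdoor animals ranged over 10.35 to 10.60. Of the indoor animals 6 ranged over 9.89 to 10.08, below every outdoor animal, and animal 2 stood at 10.79, above every outdoor animal. Without indoor animal 2 the difference was 0.46 (SE 0.05) and passed the adjusted threshold (limma adjusted p = 0.0086). That animal went against the difference, so leaving it out favours a pass, and no other single omission gave a pass. *ST6GALNAC4* differed in the opposite direction in the same animals, and indoor animal 2 was the highest of its group for both genes. *C1GALT1*, which builds the core glycan that these enzymes extend, had a flat probe set at 6.98.

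Among 11 lists of cell type and fibre markers, the endothelial list stood out beside these genes. Its 6 varying markers were all higher outdoors at an unadjusted limma p under 0.05, beside 9.21% of all varying probe sets. Their median difference was 0.38, and none passed the adjusted threshold. *PECAM1* averaged 10.22 outdoors and 9.68 indoors (limma adjusted p = 0.15). The mean level of the list ranged over 8.84 to 9.23 outdoors and 8.31 to 8.86 indoors, and the defining marker *VWF* had a flat probe set at 5.75. All 7 varying slow fibre markers were higher outdoors in the means, with list levels of 13.08 to 13.30 outdoors and 12.47 to 13.24 indoors. The 6 varying leukocyte markers also averaged higher (median 0.11). All 3 varying satellite cell markers (median -0.21), both varying red blood cell markers (median -0.07) and 5 of 7 adipocyte markers (median -0.13) averaged lower outdoors. No marker of these last 4 lists had an unadjusted limma p under 0.05. The skeletal muscle list lay at 13.56 to 13.66 outdoors and 13.33 to 13.64 indoors, as the tissue label has it. The part of cell composition in the lower levels of the 6 genes was not tested, and in whole muscle fewer cells of a type and less RNA per cell cannot be told apart.

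Correlations between the 6 genes within each group ask whether animals that were high in one gene were high in another. They use deviations from the group mean. The choice of the genes used the size of these deviations in each gene, through its test, but not how the genes varied together. Over 30 correlations, 15 pairs in each group, 1 passed the threshold after Benjamini-Hochberg adjustment. In indoor animals *MAP7D1* and *ST6GALNAC4* varied together, with r = 0.93 (two-sided exact permutation p = 0.0006, adjusted p = 0.018, n = 7). Spearman's rho was 0.96 (exact permutation p = 0.0028, adjusted p = 0.083, n = 7). Animals 5 and 6 were the lowest in both genes and animals 2 and 3 the highest in both, and without animals 5 and 6, the farthest from the median of *MAP7D1*, r was 0.96.

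Outdoors the same pair had an r of -0.37 (exact permutation p = 0.43, adjusted p = 0.84, n = 7). The difference between the groups, tested on Fisher-transformed r by exact permutation of the group labels, had p = 0.033 and an adjusted p of 0.50 over the 15 pairs. It thus failed the correction. The indoor correlation also failed it when any of indoor animals 1, 2, 3, 5 or 6 was left out. With 6 animals there are fewer pairings, which limits the smallest p, so these failures do not measure the strength of the correlation. Over these and the other omissions r was between 0.86 and 0.97 (exact permutation, n = 6). The indoor animals highest in *ST6GALNAC4*, animals 2, 3 and 7, were also those with the highest scores on the first principal component of the varying probe sets. Their scores were 32.6, 18.9 and 14.3, against -3.68 to 1.80 for the other 4 indoor animals. The part of that component in the correlation was not tested. After removal of the level of the hybridisation control probe sets, r was 0.86 (exact permutation, adjusted p = 0.63, n = 7).

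**Figure D3:**
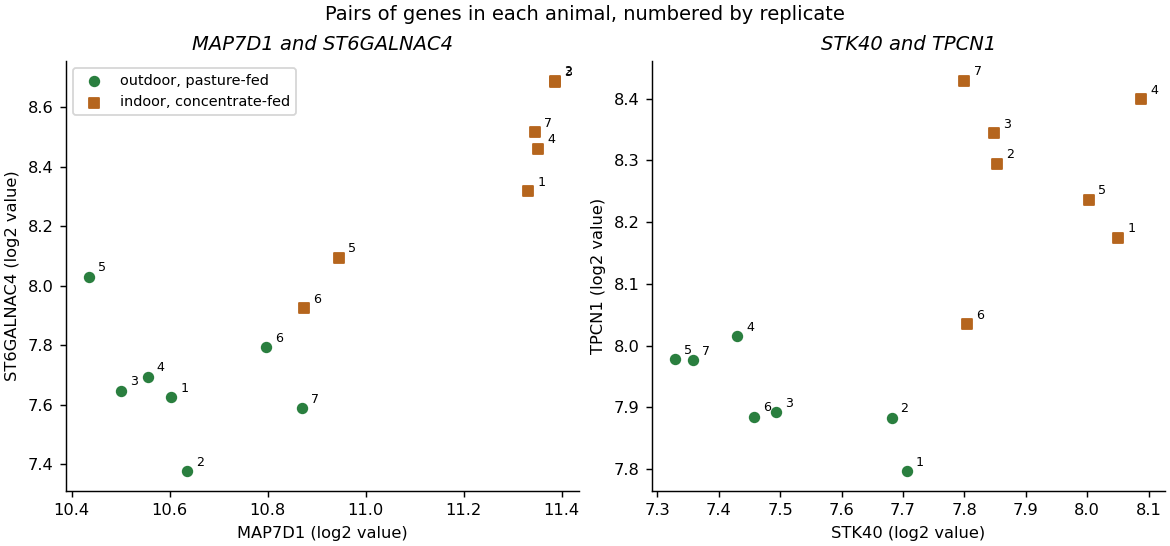
Log2 values of *MAP7D1* against *ST6GALNAC4* (left) and of *STK40* against *TPCN1* (right) in each animal, numbered by replicate, with outdoor/pasture-fed animals as green circles and indoor/concentrate-fed animals as brown squares. The indoor squares of the left panel lie along a rising line (r = 0.93), on which animals 2 and 3 coincide, and the outdoor circles of the right panel along a falling one (r = -0.82).

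Outdoors the strongest relation was an inverse one between *STK40* and *TPCN1*, with r = -0.82 (exact permutation p = 0.024, adjusted p = 0.36, n = 7). Spearman's rho was -0.86 (exact permutation p = 0.024, adjusted p = 0.36, n = 7), and r was -0.65 without outdoor animals 1 and 2. Those animals had the highest *STK40*, and animal 1 the lowest *TPCN1*. After repeated quantile normalisation the outdoor r was -0.55 (exact permutation p = 0.19, n = 7). With each array centred on its median it was -0.64 (exact permutation p = 0.11, n = 7). After removal of the level of the hybridisation control probe sets it was -0.64 (exact permutation p = 0.12, n = 7). Indoors the same pair had r = 0.08 (exact permutation p = 0.88, n = 7), and the difference between the groups had an exact permutation p of 0.31. *STK40* was also inversely related outdoors to *EML1* (r = -0.69) and to *ST6GALNAC4* (r = -0.67), with exact permutation adjusted p of 0.41 and 0.48 (n = 7). Without outdoor animals 1 and 2 these r were -0.81 and -0.46. By quantitative PCR in its larger set, the study reported significant positive correlations among *TULP1*, *STK40*, *MAP7D1* and *ST6GALNAC4*, so also between *STK40* and *ST6GALNAC4*. Those values took both groups together and mix differences between groups with variation within them, so they are not the same measure.

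**Figure D4:**
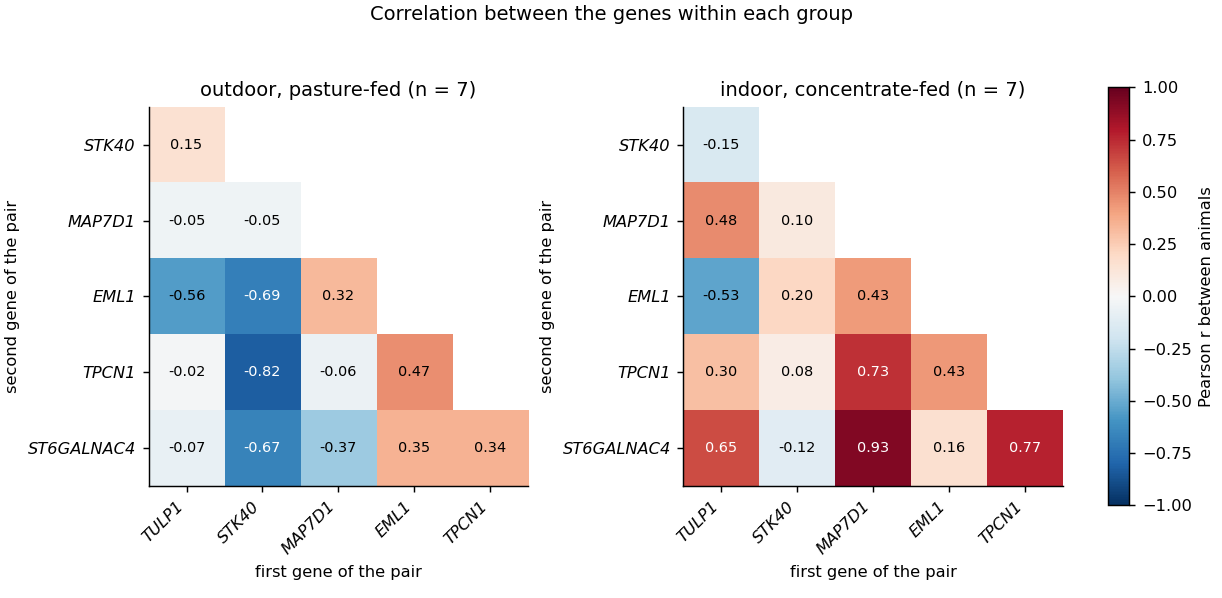
Pearson r between each pair of the 6 genes across the 7 outdoor/pasture-fed animals (left) and the 7 indoor/concentrate-fed animals (right), from blue at -1 to red at 1. In the outdoor panel 5 of 15 values are above 0, and in the indoor panel 12 of 15, with the highest at *MAP7D1* and *ST6GALNAC4*.

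Across the 15 pairs the median r was -0.05 outdoors, with 5 pairs above 0, and 0.30 indoors, with 12 pairs above 0. No pair passed the test of a difference between the groups after adjustment. *TULP1* and *EML1* were inversely related in both groups (r = -0.56 outdoors and -0.53 indoors), with exact permutation adjusted p of 0.67 and 0.74 (n = 7). Both r were -0.26 without the 2 animals farthest from the median of *TULP1*. *TPCN1* and *ST6GALNAC4* had r = 0.34 outdoors and 0.77 indoors, with exact permutation adjusted p of 0.84 and 0.41 (n = 7). The outdoor value was 0.13 without outdoor animal 5 and 0.16 after repeated quantile normalisation. Pooled over 14 animals after centring each group, this pair had r = 0.65 and rho = 0.57 (within-group permutation p = 0.026 and 0.049, adjusted p = 0.39 and 0.37), and r = 0.46 without the 2 animals farthest from the median of *TPCN1*. None of the 15 pooled correlations passed the adjusted threshold.

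*STK40* and *MAP7D1* are neighbours on chromosome 3. Their starts lie 159 kb apart, with 121 kb between the genes, and 3 protein-coding genes lie in between. *EVA1B*, *SH3D21* and *THRAP3*, these 3 genes, all have flat probe sets, at 6.67, 6.07 and 11.82, so that the interval gave no measure of a difference between the groups. Within the groups no correlation between the 2 neighbours was detectable, with r = -0.05 outdoors and 0.10 indoors (exact permutation p = 0.93 and 0.74, n = 7).

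Around the 6 genes, 52 other genes with a probe set start within 500 kb, 27 of them with a varying one, and none passed the adjusted threshold. At an unadjusted limma p under 0.05, 4 of the 52 were lower outdoors and 1 higher, beside 6.07% and 5.35% of all probe sets. Among the 27 varying ones 2 were lower and 0 higher, beside 10.4% and 9.21% of all varying probe sets. The nearest measured gene on one side of *ST6GALNAC4* was *DPM2*, a subunit of the enzyme that makes dolichol-phosphate-mannose for glycan synthesis. *DPM2* averaged 6.75 ± 0.21 outdoors and 7.13 ± 0.36 indoors (SD, n = 7 each). Its difference was -0.39 (SE 0.16, limma adjusted p = 0.38). On the other side *ST6GALNAC6*, a sialyltransferase of the same family, differed by -0.12 (SE 0.09, limma adjusted p = 0.67).

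Next to *TULP1*, *TEAD3*, a transcription factor of the Hippo pathway, differed by -0.09 (SE 0.04, limma adjusted p = 0.48) and *FKBP5*, a glucocorticoid-induced chaperone partner, by 0.17 (SE 0.18, limma adjusted p = 0.78). *LSM10*, the nearest measured gene on one side of *STK40*, differed by -0.03 (SE 0.01, limma adjusted p = 0.455). *EVL*, the nearest measured gene on one side of *EML1*, differed by 0.04 (SE 0.04, limma adjusted p = 0.80). The nearest measured genes on the other side of *EML1* (*CCNK*) and of *MAP7D1* (*TRAPPC3*), and on both sides of *TPCN1* (*IQCD* and *SLC8B1*), had flat probe sets.

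**Figure D5:**
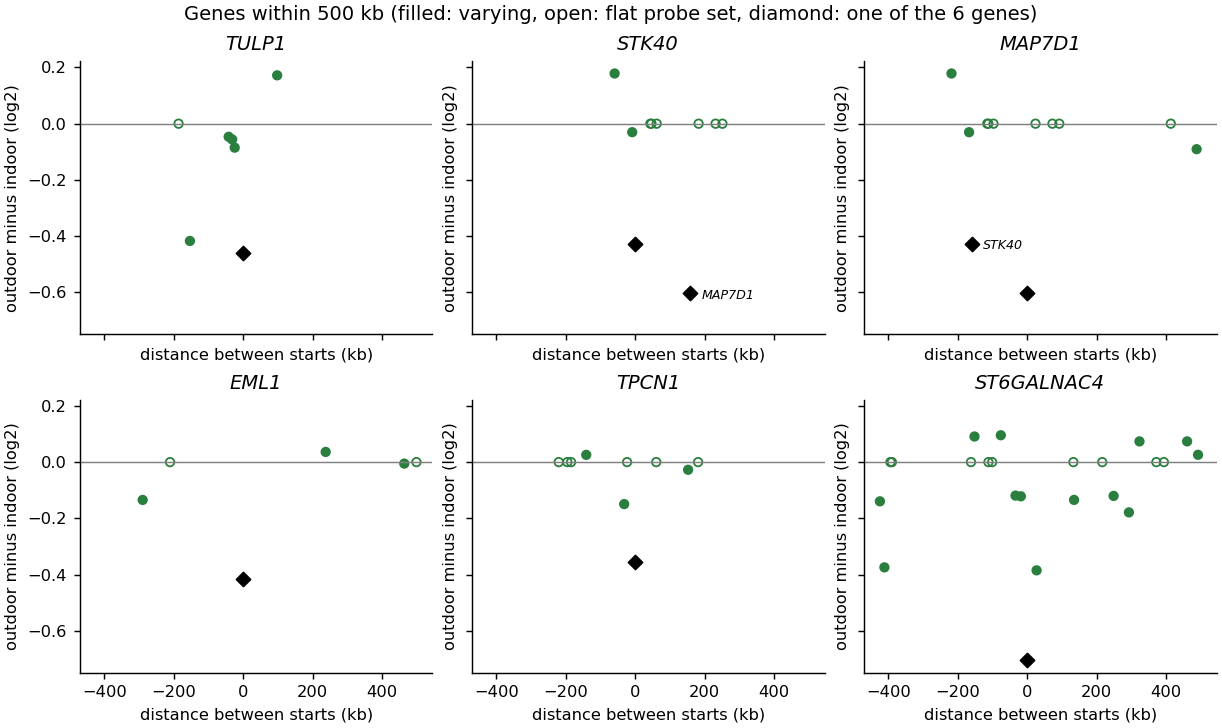
Difference between outdoor and indoor means (vertical axis, log2) of genes starting within 500 kb of each of the 6 genes, by distance between the starts in kb (horizontal axis). Black diamonds are the 6 genes, filled circles varying probe sets and open circles flat ones. The 3 open circles between *STK40* and *MAP7D1* lie at 0, and no circle lies as low as the diamond of its panel.

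The genes whose pattern was most like each of the 6 were found by the Pearson r of group-centred values over the 14 arrays, among varying probe sets with 1 symbol. These r are a description. *TULP1* was closest to *CLTA* (r = 0.92), a light chain of clathrin, then to *TPP2* (0.90) and *RBM17* (0.89). *MAP7D1* was closest to *CORO6* (0.93), an actin-binding coronin, then to *TNIP1* (0.89) and *METTL13* (0.88). *EML1* was closest to *POLR3GL* (0.90), *NUP155* (0.88) and *UROS* (0.85), an enzyme of haem synthesis.

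*STK40* was closest to *UQCRFS1* (0.84), the iron-sulphur subunit of respiratory complex III, then to *CAV2* (0.82). *UQCRFS1* and *CAV2* were higher outdoors in the means, by 0.14 and 0.19, whereas *STK40* was lower, so that a shared pattern within groups did not go with a shared difference between them. *TPCN1* was closest to *BLOC1S2* (0.82), a subunit of complexes that position lysosomes, then to *NANS* (0.81), the sialic acid synthase, and *EIF2B1* (0.81). *ST6GALNAC4* was closest to *ZNHIT3*, *PPIB* and *ARPC3* (0.86 each). The share of varying probe sets with r above 0.5 differed between the genes, with 13.8% for *ST6GALNAC4*, 11.6% for *TULP1* and 9.63% for *MAP7D1*, and only 2.97% for *STK40*.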

How the data were processed

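The authors quantile normalised the array intensities, summarised them per probe set with FARMS (a factor analysis of the probes of a set) and deposited log2 values, which were used as they stand. Their filter for informative probe sets needs probe-level data and was not repeated. Control probe sets (112) were left out, which leaves 24016. Outdoor minus indoor differences came from limma 3.58.1 in R 4.3.3 (linear model with eBayes), with Benjamini-Hochberg adjustment over all probe sets fitted and a threshold of 0.05. Varying probe sets (9623) have an SD above 0.01.

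The 6 genes, the lists of related and marker genes and the tests were chosen with earlier results of these data known. A gene of a list stands at its probe set of highest mean, with symbols from the platform annotation (13292 probe sets with 1 symbol, 86 with several, 10638 with none), of which 13263 matched a gene identifier. Positions are those of ARS-UCD2.0. From each related list, genes past the threshold (up to 4) or the 2 with the smallest p in the fit over all probe sets were named, and further the nearest measured neighbours, the genes between *STK40* and *MAP7D1*, and the 3 most alike per gene, of which 1 is not reported here; *TULP3*, *PECAM1* and *VWF* were added after their values were seen. Within-group correlations were tested over all 5040 pairings, pooled ones with 100000 permutations within groups, and differences over 3432 label sets, with numpy 2.4.6 and scipy 1.17.1. Scripts were tested on simulated data.

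Each array is labelled as a separate animal. The study managed the animals of each system in several groups, which the labels do not give. All tests took the animals as independent. Alternatives were filters by SD and mean, trended and robust priors, array weights, centring each array on its median, quantile normalising again, the hybridisation control level, a replicate block, another choice of probe set, windows of 250 and 1000 kb, Spearman's rho and leaving out each array.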

Additional observations from a re-analysis of the deposited data

Results flagged for a closer look

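For *TULP1*, indoor animal 2 had the highest value of its group, 8.86, with the next animal at 8.72 and the lowest at 8.61, so that its gap to the nearest animal was 0.59 of the group's range. For *ST3GAL2*, a sialyltransferase gene of the list around *ST6GALNAC4*, the same animal was at 10.79, with the next at 10.08 and the lowest at 9.89, a gap of 0.79 of the range. Over 50 groups of 7 animals, from 25 genes, 2 had an animal with a gap above Dixon's critical value, and chance alone gives about 1 in 20. The array of indoor animal 2 had the lowest median correlation with the other arrays, 0.962. Without it the difference of *TULP1* was -0.43, against -0.46 with it.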

How the results depend on the processing

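The differences of the 6 genes kept their sign under the 19 alternatives run for them, which do not include array weights, with a median between -0.47 and -0.43 when single animals were left out. The kept sign is a description, because the genes were chosen for this difference on the same arrays. The replicate block cannot change these differences, since each number occurs in both groups. The number of probe sets past the threshold, 4 in all, was 33 and 37 with only SDs above 0.01 and 0.1, 17 with means above the median, 17 with array weights, 7 with centring, 1 with the hybridisation control level and 2 with the replicate block. With single animals left out it was 1 to 8: 8 without outdoor animal 2, and 1 without outdoor animal 1, 3, 4, 5 or 7 or indoor animal 3. Numbers shared by animals of both groups were not treated as pairs. Deviations of same-numbered animals had r from -0.18 to 0.24, highest for number 2, and these r cannot decide whether such animals were paired. The replicate block called no related or neighbouring gene, and neither did the fit without it. No neighbouring gene passed under any alternative. Related genes past the threshold were 0 to 1 with single animals left out: *ST3GAL2* passed without indoor animal 2, and it was the 1 gene passing without the 3 arrays of lowest correlation, an alternative chosen after seeing the data. Both alternatives leave out the animal that went against the difference of *ST3GAL2*.

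The number of within-group correlations past the threshold, 1, was 0 after the hybridisation control level, with Spearman's rho and without those 3 arrays, and 0 to 1 with single animals left out. For *MAP7D1* and *ST6GALNAC4* indoors r was 0.86 after the control level and 0.95 without the 3 arrays, rho was 0.96, and single omissions gave 0.86 to 0.97. Outdoors this pair had r of 0.21 after the control level, 0.10 without the 3 arrays and -0.57 to 0.10 under single omissions, with 0.10 without animal 5. For *STK40* and *TPCN1* indoors r was -0.078 with repeated quantile normalisation, -0.15 after the control level, -0.11 as rho and -0.42 to 0.38 under single omissions. Fewer animals leave fewer pairings, which limits the smallest p; other causes were not tested. The level of the array signal over background is not in the deposited values, and flat probe sets give no measure of a difference.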
